A study of Salmo salar with 6 samples.

Results

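The genes described here are those of the cell cycle and of DNA replication in the head kidney of Atlantic salmon (Salmo salar). They were chosen by gene symbol: the minichromosome maintenance genes (mcm), the origin recognition complex (orc), the replicative DNA polymerases (pola, pold, pole), the clamp loader (rfc), the cdc, cyclin and cdk names, the mitotic kinases and checkpoint genes (plk, aurk, bub, ttk, chek), survivin (birc5), the kinesins (kif), the centromere proteins (cenp), condensin and the other SMC proteins (ncap, smc) and topoisomerase II (top2). The rule found 116 genes among the 25270 RefSeq genes that could be matched to probes on the array, each with a single probe. Of the 25270 genes 7990 carry a gene name, and the others cannot be found by symbol. By textbook role, 28 of the 116 were placed in replication, 46 in mitosis and chromosome structure and 14 in control of the cycle. The replication group takes in mcm8, mcm3ap and mcmdc2 by their mcm name. The remaining 28 of the 116 carry a matching name but act mainly elsewhere, as transport kinesins or transcriptional cdks.

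Before a cell divides, the origin recognition complex and its loading factors place the MCM helicase on DNA, and Cdc7 and cyclin-dependent kinases then fire the origins, where the polymerases alpha, delta and epsilon copy the strands with the help of the clamp loader. In mitosis, cyclin B with Cdk1 drives entry, condensins and topoisomerase II compact the chromosomes, centromere proteins tie them to the spindle, and the anaphase-promoting complex with Cdc20 releases the sister chromatids once the Bub checkpoint is satisfied. The head kidney is the main blood-forming organ of bony fishes, with dividing erythroid, myeloid and lymphoid precursors beside the interrenal, steroid-making tissue.

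The study compared juvenile salmon of 252 g fed for 133 days a diet with 0.1% MPLE, a medicinal plant leaf extract of sage and lemon verbena holding ursolic acid, other triterpenes and verbascoside, with salmon fed the basal diet alone (control, 0% MPLE). Each diet had 3 pools, each pool holding RNA of 6 fish (18 fish per diet), and each pool was labelled and hybridised to its own array of oligonucleotide probes. The labels do not give the tanks behind each pool. A level below is the log2 of a probe's background-subtracted intensity relative to the 75th percentile of its array, so 0 is that percentile itself. A change is the MPLE mean minus the control mean of these levels, with its 95% interval. In pooled tissue, fewer cells of a type and less RNA per cell cannot be told apart.

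The 75th percentile of intensity was 499 to 710 on the MPLE arrays and 138 to 470 on the control arrays, with 24841 to 33020 spots well above background on the MPLE arrays and 18046 to 25868 on the control arrays. Control pool 3 was the dimmest array and stood apart on the first principal component of all probes (51.7% of the variance), where the MPLE pools lay at 35.9 to 73.8, the other control pools at -20.4 and 2.35 and control pool 3 at -140.7. Each array came from a slide of its own (6 slides, 0 shared by the diets). The MPLE arrays were scanned after those of the control diet, so neither slide nor scan order can be told apart from diet. Of the spike-in RNAs, E1A_r60_3 and E1A_r60_n9 read 2.91 and 2.16 higher (log2) on the MPLE arrays than on the control arrays. The others differed by -0.48 to 0.72. The part of this in the results was not tested. Genes taken to define the labelled tissue were read by whether they stood well above background. Alas2 of haem synthesis, cd79b of the B cell receptor, csf3r of granulocytes and star of steroid synthesis did so on 6 of 6 arrays. The interrenal list also held cyp17a1 (1 of 6 arrays) and th (4 of 6), both too dim for a test. The T cell genes cd3e and eomes did so on 5 of 6. The 5 skeletal muscle genes read below did so on 6 of 6, so this criterion alone does not identify the tissue.

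No gene of the cell cycle or of DNA replication passed the test between the diets. In the limma fit over 23132 probes, 79 probes (0.342%) passed an adjusted p of 0.05, 70 higher and 9 lower in the MPLE diet, and among 15413 genes read at 1 probe each 33 (0.214%) did. Of the 116 genes 95 were bright enough to be tested and 0 passed, the smallest adjusted p being 0.133, for kif14. At an unadjusted p under 0.05, 3 of the 95 were higher and 8 lower, 11.6% in both directions. Of all genes tested it was 15.6% (10.4% higher and 5.16% lower). Among the 3 higher, birc5b and ccne1 were tested only through the MPLE arrays, where they were brighter. Most of the point estimates lay below 0: 70 of 95 genes (73.7%) read lower with MPLE, against 51.3% of all genes, and their median change was -0.32, against -0.02 for all genes. Of the 95, 88 were well above background on all 6 arrays, but of all 15413 genes only 11896. Among these 77.3% read lower, against 59.2% of all genes, with medians of -0.33 and -0.12. There 3.41% were higher and 10.2% lower at an unadjusted p under 0.05 in limma, against 8.57% and 7.31% of all genes.

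The size of that lean depended on which control pools were counted. Control pool 3 gave the highest of the 6 values for 62 of the 95 genes (65.3%), as it did for 39.9% of all genes tested, and it lay farthest from the median of the pools for 75 of them (78.9%), against 54% of all genes. Without control pool 3 the median change of the 95 genes was -0.07, with 57 lower (60% against 46.3% of all genes), against 0.04 for all genes. Leaving out control pool 2 instead gave -0.54, with 74 lower (77.9% against 55.2% of all genes), against -0.10 for all genes, and 24 lower at an unadjusted p under 0.05 (25.3% against 11.2% of all genes). Normexp background correction handles dim spots differently and adds an offset of 50 to every intensity. That offset weighs more on control pool 3 (75th percentile 138) than on the MPLE arrays (499 to 710). It moves dim probes unequally between arrays, so the changes of dim genes under normexp are no independent check. With normexp the median was -0.20, against -0.17 for all genes. There 66 were lower (69.5% against 61.1% of all genes). The scaling moved all genes together. Spike-in centring took the mean of all spike-in RNAs, E1A_r60_3 and E1A_r60_n9 among them. With it the 95 genes had a median of -0.77 against -0.47 for all genes. In the unscaled deposited values the median was 0.77 against 1.04. The 3 MPLE pools lay close together and the 3 control pools did not: the median standard deviation over pools was 0.15 in the MPLE diet and 0.51 in the control diet for these genes, and 0.18 and 0.47 for all genes.

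The replication genes had a median change of -0.48 over the 25 genes tested, 20 lower and 5 higher, with 0 past the adjusted threshold. The 5 higher include mcm8 and mcm3ap, which are in the group by name. At an unadjusted p under 0.05, 3 were lower and 0 higher, 12% and 0%, against 5.16% and 10.4% of all genes. The middle gene of the group deviated from its mean over all pools by -0.37, -0.11 and -0.18 in MPLE pools 1, 2 and 3, against 0.12, -0.21 and 0.78 in control pools 1, 2 and 3. Seen this way the diets overlapped, since control pool 2 lay below MPLE pools 2 and 3, and the control pools spanned a wider range than the distance between the diets. All 25 genes varied more between the control pools than between the MPLE pools, as did 13247 of all 15413 genes tested. Without control pool 3 the median change of the group was -0.21, with 18 of 25 lower (72% against 46.3% of all genes). With normexp background correction it was -0.25, against -0.17 for all genes, with 19 of 25 lower (76% against 61.1% of all genes).

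**Figure D1:**
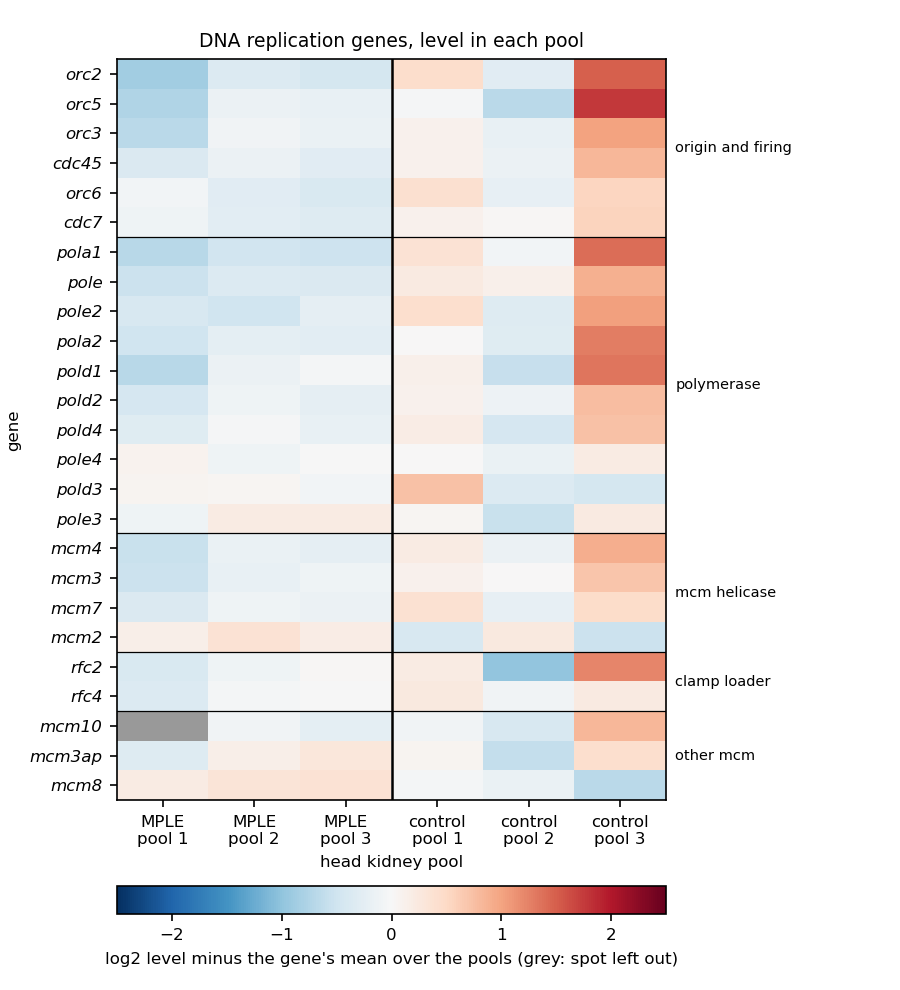
Level of each tested DNA replication gene in the 3 MPLE pools (left) and the 3 control pools (right), as the difference in log2 units from that gene's mean over the pools; grey marks a spot that was left out. Control pool 3 holds the highest value for 21 of the 25 genes, and the MPLE pools differ little from each other.

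The origin recognition complex marks where replication starts, and 4 of its genes were tested. Orc2 had levels of 1.77, 2.30 and 2.22 in MPLE pools 1 to 3, against 3.08, 2.36 and 4.15 in the control pools. All MPLE pools lay below all control pools, by a narrow margin between MPLE pool 2 and control pool 2, and the change of -1.10 (-2.20 to -0.0031) had an adjusted p of 0.282 in limma and was -0.62 without control pool 3. Orc5 read 2.65, 3.25 and 3.22 in MPLE pools and 3.37, 2.73 and 5.17 in control pools. Here the diets overlapped, and the change of -0.72 became -0.01 without control pool 3, the array on which orc5 stood highest. Orc3 and orc6 differed by -0.62 (adjusted p = 0.402 in limma) and -0.48 (adjusted p = 0.390 in limma), orc3 by -0.27 without control pool 3.

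The MCM genes did not share a direction. The helicase subunits mcm3, mcm4 and mcm7 read lower with MPLE, by -0.54, -0.65 and -0.42, and mcm2 higher, by 0.46. With control pool 3 set aside the values of mcm3 and mcm4 were -0.33 and -0.35. Mcm4 stood at 3.04, 3.43 and 3.38 in the MPLE pools, against 3.81, 3.46 and 4.52 in the control pools, with every MPLE pool below every control pool (adjusted p = 0.344 in limma). Mcm2 stood at 2.39, 2.61 and 2.43 in the MPLE pools, against 1.85, 2.48 and 1.72 in the control pools. Control pool 3, which was highest for mcm3, mcm4 and mcm7, was lowest for mcm2, and control pool 2 fell among the MPLE pools (adjusted p = 0.409 in limma). Mcm8, which forms a helicase with Mcm9 in recombination repair, was the single replication gene whose MPLE pools all lay above the control pools, at 0.94, 1.05 and 1.08 against 0.68, 0.57 and 0.06 (change 0.59, adjusted p = 0.293 in limma). Mcm10, an initiation factor, lost its spot in MPLE pool 1 and was fitted on the other 5 pools, with a change of -0.28.

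Of the kinase and helicase factors that fire origins, cdc7 read 0.72, 0.56 and 0.50 in the MPLE pools and 0.93, 0.84 and 1.39 in the control pools. Its diets did not overlap, and its change was -0.46 (-1.06 to 0.13, adjusted p = 0.364 in limma). Cdc45, which joins MCM and GINS in the moving helicase, differed by -0.53 (adjusted p = 0.393 in limma). These were -0.30 and -0.25 without control pool 3. Among the other genes of this machine outside the symbol rule, gins3, a GINS subunit, read 3.78, 2.82 and 4.09 in the MPLE pools, against 2.15, 1.89 and 1.13 in the control pools. All MPLE pools lay above all control pools, but the change of 1.84 had an adjusted p of 0.110 in limma.

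The catalytic subunits of polymerases epsilon and alpha gave the smallest p-values of the replication genes. Pole, the leading-strand polymerase epsilon, stood at 0.78, 0.97 and 0.94 in the MPLE pools, against 1.54, 1.44 and 2.20 in the control pools. Pola1, which together with primase begins each new strand, stood at 0.93, 1.13 and 1.09, against 1.98, 1.54 and 3.01. For both genes all MPLE pools lay below all control pools. The change of pole was -0.83 (-1.49 to -0.17, adjusted p = 0.202 in limma) and that of pola1 -1.13 (-2.06 to -0.20, adjusted p = 0.216 in limma). Without control pool 3 they were -0.60 and -0.71.

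The other polymerase subunits gave larger p-values. Pole2 differed by -0.75 (adjusted p = 0.329 in limma), pola2 by -0.66, pold1, the catalytic subunit of the lagging-strand polymerase delta, by -0.59, pold2 by -0.50 and pold4 by -0.33. The same without control pool 3 came to -0.43 for pole2, -0.18 for pola2, -0.24 for pold2 and -0.05 for pold4. Pold1 ran from 1.13 to 1.78 over the MPLE pools and from 1.24 to 3.16 over the control pools, and without control pool 3 its change was -0.07. The small subunits pole3, pole4 and pold3 differed by 0.19, -0.03 and 0.03, with signs that turned under other processing. The clamp loader genes rfc2 and rfc4 differed by -0.30 and -0.26, and under normexp background correction by 0.29 and 0.22. Mcm3ap, which falls under the rule by its name and binds Mcm3, differed by 0.08.

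The mitotic genes had a median change of -0.27 over the 39 tested, 29 lower and 10 higher, with 0 past the adjusted threshold. At an unadjusted p under 0.05, 4 were lower and 1 higher, 10.3% and 2.56%, against 5.16% and 10.4% of all genes. The middle gene deviated by -0.22, -0.04 and -0.10 in MPLE pools 1, 2 and 3, against 0.25, -0.22 and 0.49 in control pools 1, 2 and 3. Here control pool 2 lay level with MPLE pool 1 and below MPLE pools 2 and 3. Without control pool 3 the median was -0.19 (25 of 39 lower, 64.1% against 46.3% of all genes). With normexp it was -0.09, above the -0.17 of all genes, with 24 of 39 lower (61.5% against 61.1% of all genes).

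**Figure D2:**
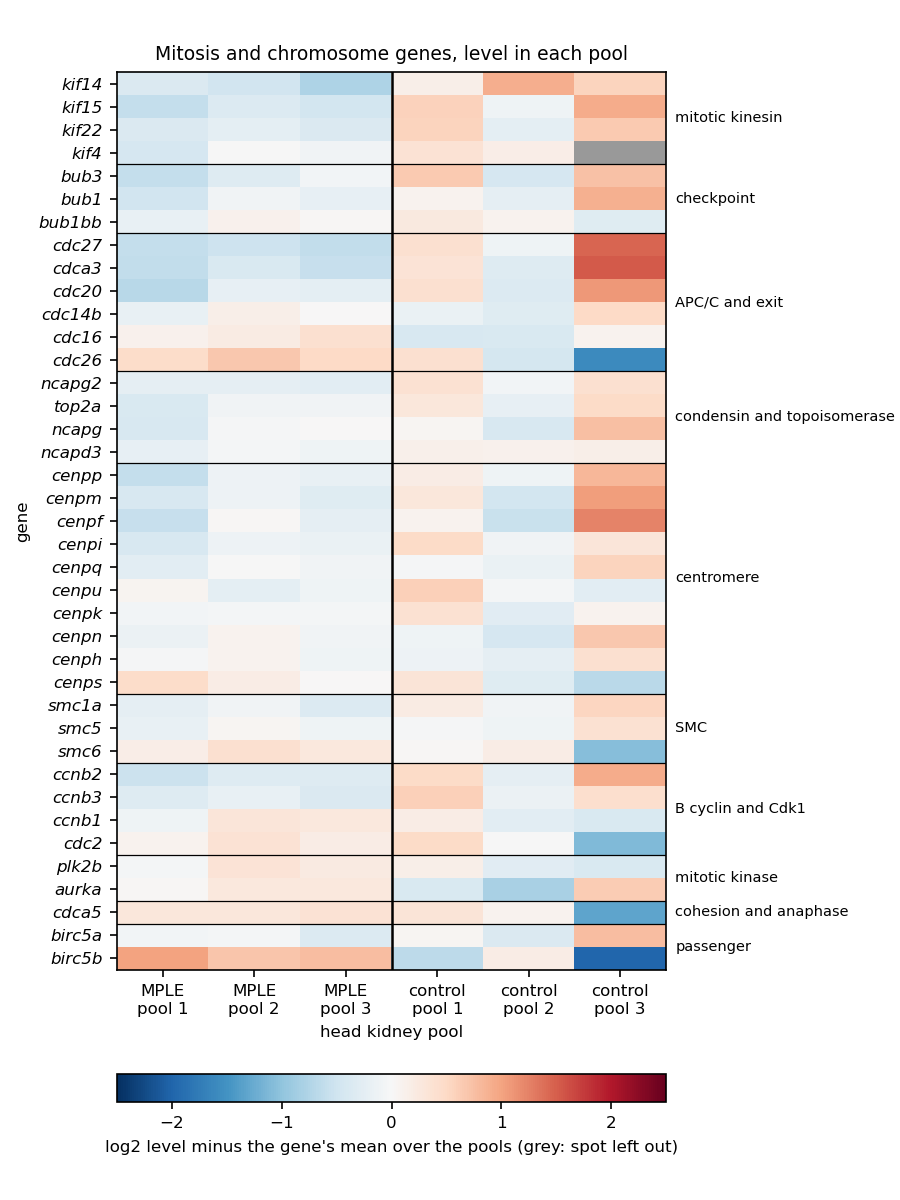
Level of each tested mitosis and chromosome structure gene in the 3 MPLE pools (left) and the 3 control pools (right), as the difference in log2 units from that gene's mean over the pools; grey marks a spot that was left out. Birc5b and cdc26 are lowest in control pool 3, and cdca3, cdc27 and cdc20 are highest there.

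The cyclins and the kinase that start mitosis differed in sign among themselves. Ccnb2 stood at 2.09, 2.32 and 2.31 in the MPLE pools, against 3.11, 2.41 and 3.56 in the control pools, and ccnb3 at 2.72, 2.87 and 2.68, against 3.63, 2.90 and 3.47. In both, the MPLE pools lay below the control pools, with control pool 2 just above them, and the changes were -0.79 (adjusted p = 0.282 in limma) and -0.58 (adjusted p = 0.321 in limma), that of ccnb2 being -0.52 without control pool 3. Ccnb1 read higher, at 2.73, 3.15 and 3.11 in the MPLE pools and 3.03, 2.58 and 2.47 in the control pools, with overlap and a change of 0.31 (0.19 without control pool 3). The gene listed as cdc2, the former name of cdk1, stood at 3.49, 3.77 and 3.59 in the MPLE pools, against 3.87, 3.39 and 2.29. Its diets overlapped, control pool 3 was the lowest, and the change of 0.43 was -0.01 without that pool. The mitotic kinase gene aurka differed by 0.36 (adjusted p = 0.624 in limma), and by 0.77 without control pool 3.

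The survivin paralogues birc5a and birc5b had changes of opposite sign. Survivin is a subunit of the chromosomal passenger complex, which carries Aurora B to centromeres. Birc5b stood at 0.22, -0.09 and -0.02 in the MPLE pools, against -1.44, -0.61 and -2.78 in the control pools. Of the 3 control arrays 2 had the probe well above background, so birc5b was tested only through the MPLE arrays, where it was brighter. All MPLE pools were higher, which that filter favours, and the change was 1.65 (0.40 to 2.89, adjusted p = 0.189 in limma). Birc5a stood at 4.97, 5.00 and 4.70 in the MPLE pools, against 5.08, 4.68 and 5.81 in the control pools. Its pools overlapped, with a change of -0.30 (-1.09 to 0.49). The changes were 1.06 for birc5b and 0.01 for birc5a without control pool 3. The difference between the pair was not tested.

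Of the mitotic kinesins, kif14, which acts in cytokinesis, had the smallest p-value of all 95 genes. It stood at -3.14, -3.27 and -3.56 in the MPLE pools, against -2.63, -1.87 and -2.22 in the control pools. All control pools were higher, the change was -1.08 (-1.75 to -0.41, adjusted p = 0.133 in limma), and it was -1.07 without control pool 3 and -1.17 with normexp. In MPLE pools 1 and 3 kif14 lay near the lowest level well above background on those arrays, -3.65 and -3.98. Its normexp value is read under the limit given above for dim genes. Kif15, a spindle kinesin, stood at 1.46, 1.71 and 1.59, against 2.63, 1.94 and 2.97, also without overlap (change -0.93, adjusted p = 0.205 in limma). Kif22, a chromosome arm motor, and kif4, a chromokinesin fitted without control pool 3, whose spot was left out, differed by -0.64 and -0.45.

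The subunits of the anaphase-promoting complex had changes of both signs. Cdc27 stood at 1.60, 1.66 and 1.56 in the MPLE pools, against 2.58, 2.07 and 3.64 in the control pools, a change of -1.16 (-2.12 to -0.19, adjusted p = 0.221 in limma). Cdc26 and cdc16 of the same complex differed by 1.08 and 0.46. Cdc26 stood at 1.82, 2.03 and 1.88, against 1.77, 0.94 and -0.22. For cdc27 and cdc26 the MPLE pools lay on 1 side of all control pools, low for the one and high for the other, and control pool 3 was the outermost pool in both. Cdc20, the activator of the complex, differed by -0.76 (adjusted p = 0.353 in limma), and cdca3, a trigger of mitotic entry, by -1.05 (adjusted p = 0.302 in limma). Setting control pool 3 aside gave -0.72 for cdc27, 0.56 for cdc26, -0.41 for cdc20 and -0.54 for cdca3.

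Among checkpoint, centromere and chromosome structure genes, the checkpoint kinase gene and its partners, bub1, bub3 and bub1bb, differed by -0.51, -0.65 and -0.03 (bub1 by -0.19 without control pool 3). Top2a, which untangles DNA before segregation, stood at 4.15, 4.44 and 4.43 in the MPLE pools, against 4.81, 4.33 and 5.01 in the control pools, with overlap (change -0.38, adjusted p = 0.466 in limma; -0.23 without control pool 3 and -0.05 with normexp). The condensin gene ncapg differed by -0.27 (0.11 with normexp) and the cohesin gene smc1a by -0.43 (-0.27 without control pool 3). The kinetochore gene cenpf differed by -0.52, by -0.03 without control pool 3 and by 0.066 with normexp. Ndc80 and spc25, kinetochore genes outside the symbol rule, read higher with MPLE, by 1.02 and 0.89 (adjusted p = 0.244 and 0.161 in limma). The ndc80 probe was not well above background on the array of control pool 3, so it was tested only through the MPLE arrays. With normexp the change of ndc80 was 0.021, while that of spc25 was 0.92.

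**Figure D3:**
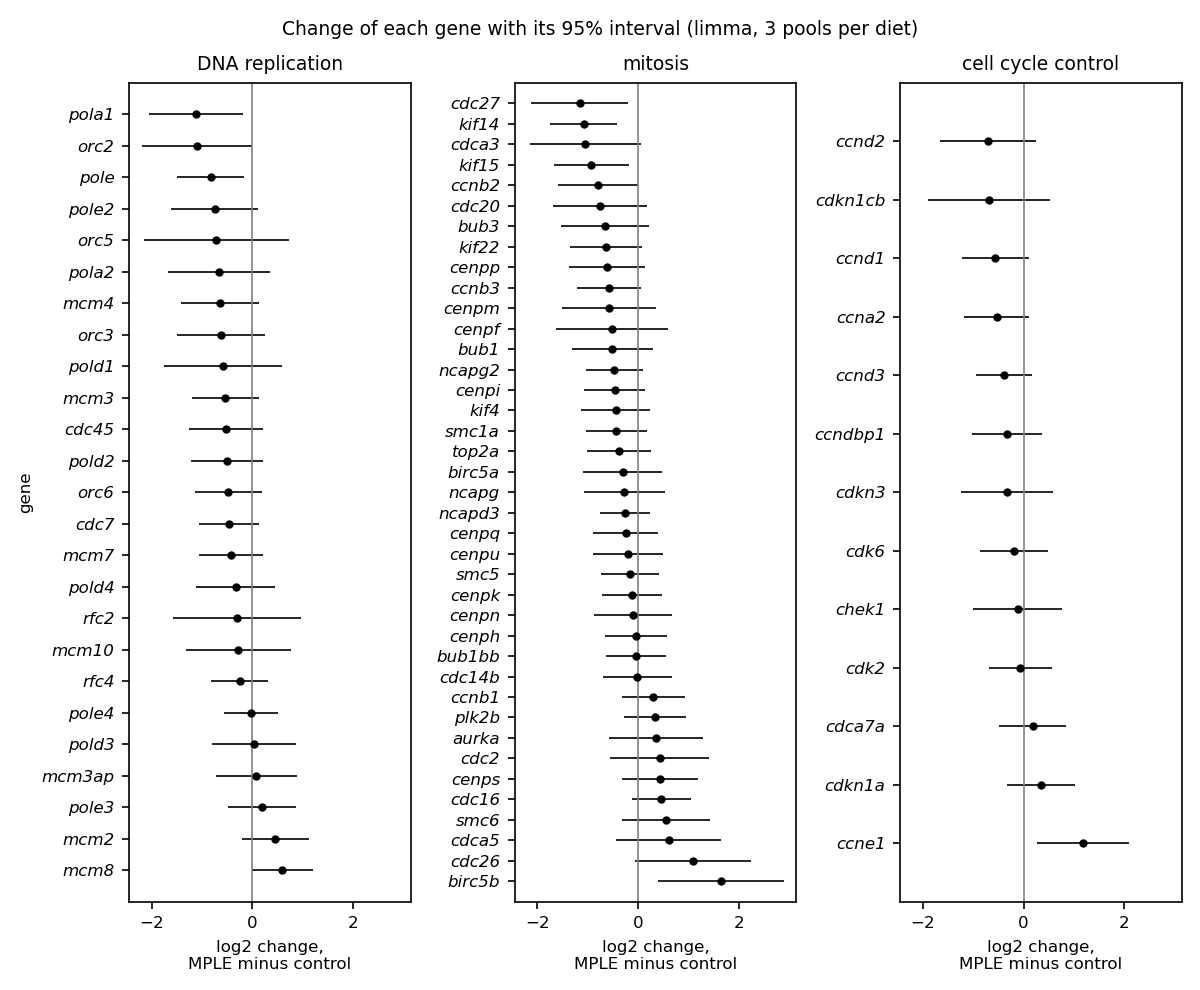
Change of each tested gene (MPLE minus control, log2 units) as a point with its 95% interval from limma as a bar, for the replication, mitosis and cell cycle control genes; the vertical line is 0. Most replication genes lie left of 0, the largest positive estimates are those of birc5b (1.65) and ccne1 (1.18), and most bars cross 0.

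Cell cycle control genes had a median change of -0.32 over 13 tested genes, 10 lower and 3 higher. At an unadjusted p under 0.05, 1 was higher (7.69% against 10.4% of all genes). That one was ccne1, the cyclin that brings Cdk2 to the start of replication. It stood at -1.42, -1.09 and -0.64 in the MPLE pools, against -1.62, -2.20 and -2.86 in the control pools. The probe was well above background on 2 of 3 control arrays, so ccne1 was tested only through the MPLE arrays, where it was brighter. The diets did not overlap, which that filter favours. The change of 1.18 (0.27 to 2.09, adjusted p = 0.193 in limma) is read under the same limit, and was 0.30 with normexp. Ccna2, the cyclin of replication and early mitosis, stood at 2.00, 2.30 and 2.23, against 2.90, 2.28 and 2.94, and the D cyclins ccnd1, ccnd2 and ccnd3, which respond to growth signals, differed by -0.56, -0.70 and -0.39 (ccnd2 by -0.26 without control pool 3 and by -0.16 with normexp). The change of ccna2 was -0.53 (adjusted p = 0.350 in limma), and ccnd1 was fitted without control pool 2, whose spot was left out. The kinase genes cdk2 and cdk6 differed by -0.06 and -0.18, the checkpoint kinase gene chek1 by -0.12 (0.37 with normexp), and the inhibitor gene cdkn1a by 0.35 (-0.13 with normexp). The cdkn1a probe was not well above background on all 6 arrays. Like ccne1 among the 3 higher, it was therefore tested through the arrays of 1 diet only. The median of the group was 0.02 without control pool 3, with 6 of 13 lower (46.2% against 46.3% of all genes).

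The genes that fall under the rule by name alone lay close to all genes, with a median change of -0.10 over 18 tested, 11 lower and 7 higher. The pair with an unadjusted p under 0.05 comprised cdk5rap2, a centrosome protein, and cdk5rap1, a modifier of mitochondrial tRNA. Of the 18 this was 5.56% lower and 5.56% higher, against 5.16% and 10.4% of all genes. Cdk5rap2 stood at 1.04, 1.10 and 1.04 in the MPLE pools, against 1.42, 1.71 and 2.49 in the control pools. Cdk5rap1 stood at 0.69, 0.83 and 0.93, against 0.25, 0.17 and -1.54. Neither gene's diets overlapped, and the changes were -0.81 (adjusted p = 0.255 in limma) and 1.19 (adjusted p = 0.277 in limma). They were -0.51 and 0.60 without control pool 3. The next by p-value were cdc40, cdk18 and cdk13. Cdc40, a splicing factor, differed by -0.93, and by -0.41 without control pool 3. Cdk18 differed by 1.66, and by -0.01 with normexp. It was well above background on 1 of 3 control arrays, so it was tested only through the MPLE arrays, where it was brighter. Cdk13, a transcriptional kinase, differed by -0.66. The cdk13 probe was not well above background on the array of control pool 3, so it too was tested only through the MPLE arrays.

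**Figure D4:**
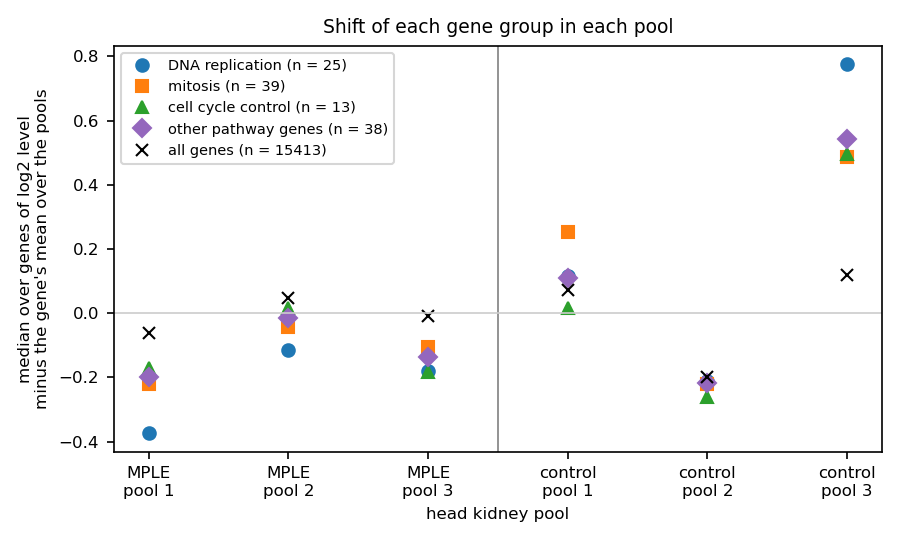
Median deviation of each gene group from its genes' own means in every pool (log2 units), for the MPLE pools (left) and the control pools (right), with all genes tested for comparison. The 3 MPLE values of the replication genes run from -0.37 to -0.11, and the control values from -0.21 to 0.78.

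**Figure D5:**
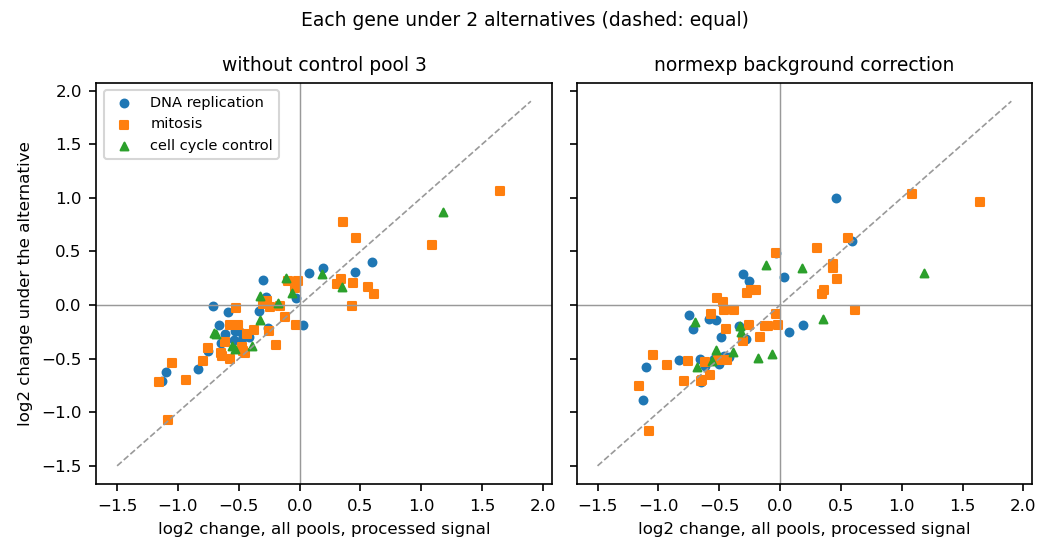
Change of each tested replication, mitosis and cell cycle control gene (MPLE minus control, log2 units) in the fit of the text (horizontal axis) against the same without control pool 3 (left, vertical axis) and with normexp background correction (right, vertical axis); points on the dashed line are equal. Without control pool 3 most genes move towards 0, pola1 to -0.71 and birc5b to 1.06, and kif14 stays at -1.07.

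Counted by pools that do not overlap, 6 of the 95 genes (6.32%) had all MPLE pools above all control pools and 22 (23.2%) had them all below, against 16.2% and 11.9% of all genes tested. In the replication group these were 1 above and 6 below, and in mitosis 3 above and 11 below. Those above include birc5b and ccne1, which were tested only through the MPLE arrays. The shares of all genes likewise count genes tested through the arrays of 1 diet only, and were not taken again without them. The 95% interval of the change lay wholly within a 2-fold change in either direction for 27 of the 95 genes, 5 of them in replication. It did so for 5383 of all 15413 genes tested. For the others of the 95 the arrays did not set a bound that narrow.

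Genes of the same pathways outside the symbol rule were counted from a fixed list. Of 88 such symbols, 40 matched a named gene on the array and 38 were tested, with 26 lower and 12 higher, a median change of -0.28 and 0 past the adjusted threshold. A symbol without a match may still have a probe under a gene that carries no name. At an unadjusted p under 0.05, 4 were higher and 2 lower, 10.5% and 5.26% of the list, against 10.4% and 5.16% of all genes. The 4 higher include ndc80, which, like e2f5 and rbl1 of this list, was too dim in control pool 3. All of these were tested only through the MPLE arrays, so the counts are read under that limit. A stricter filter, which each of the 6 arrays had to meet, left 35 genes, 25 lower and 10 higher, with a median of -0.32. There 3 were higher and 4 lower at that p, 8.57% and 11.4%, against 8.57% and 7.31% of all genes. The 5 with the smallest p were gins3, spc25 and ndc80, given above, stmn1b, a tubulin-binding protein (change 0.71, and -0.44 with normexp), and espl1, the separase that cuts cohesin (change -0.73, adjusted p = 0.276 in limma). E2f1, a transcription factor of replication genes, was well above background on 1 array and was not tested. Pcna, mki67, rrm1 and rrm2 were not analysed here.

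Of the 21 genes too dim for a test, 3 belonged to replication (mcm3l, mcm6l and mcmdc2), 7 to mitosis (plk3, bub1b, smc1b, cdc14ab, cdc25b, cdca2 and kif20ba), 1 to control (ccna1) and 10 to the genes included by name alone. Ccna1 stood at -5.65, -3.83 and -0.94 in the MPLE pools, against -4.28, -4.85 and -4.27 in the control pools, and was well above background on 2 MPLE arrays and on 0 control arrays. Those included by name alone were transport kinesins (kif16ba, kif17, kif1aa, kif21a, kif3b and kif5c) and cdk21, cdk5r2b, cdk8 and cdkl1.

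Genes of other cell types were read beside these. The 5 skeletal muscle genes tested, of a tissue that is no part of the head kidney, had a median change of -2.16 (-1.48 without control pool 3). With MPLE 5 of 5 lay lower, 4 of them without overlap (80% against 11.9% of all genes). In limma 0 passed the adjusted threshold (smallest adjusted p = 0.104), and 4 were lower at an unadjusted p under 0.05 (80% against 5.16% of all genes). The summed level of the muscle genes, in units of the array's 75th percentile, was 4.33 to 8.90 in the MPLE pools and 12.5 to 59.4 in the control pools. All 5 were well above background on 6 of 6 arrays. The muscle creatine kinase gene ckmb stood at -0.23, 0.08 and 1.02 in the MPLE pools, against 2.70, 2.01 and 5.14 in the control pools, so that control pool 3, the pool highest for most replication genes, was also the highest for this muscle gene.

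Of the cells that the head kidney holds, 6 red cell genes were tested and went both ways. Hba, an alpha globin, differed by 1.28, fitted without MPLE pool 2, whose spot was left out. Alas2 differed by 0.11, and gata1 by -0.61 (-0.28 with normexp), with all its MPLE pools below all control pools. Hbae was not well above background on the array of control pool 3. It was tested only through the MPLE arrays, where it was brighter, so no count of all signs and no median is given for this list. Of 4 B cell genes 1 was higher and 3 lower, with a median change of -0.30 (0.24 with normexp). Of 5 granulocyte and macrophage genes 3 were higher and 2 lower: csf3r by 1.14, against -0.93 for the peroxidase gene mpx, fitted without control pool 3. Their median of 0.28 was -0.41 without MPLE pool 1. Of the 3 T cell genes, cd8a was well above background on 6 of 6 arrays and differed by 0.73 (adjusted p = 0.282 in limma). With normexp its change was 0.56. All its MPLE pools lay above all control pools, with control pool 3 the lowest. The T cell genes cd3e and eomes were not well above background on the array of control pool 3. Both were tested only through the MPLE arrays, where they were brighter. The liver genes hpxa and fgg and the kidney tubule gene slc22a6l were likewise not well above background in MPLE pool 1, so no count or median is given for these lists. The 4 thrombocyte and endothelium genes had a median change of -0.71 (-0.44 without control pool 3, -0.04 with normexp). Of the 3 interrenal genes, star differed by 0.35 and mrap by -0.13. The third, pnmt, differed by -0.03 and was not well above background on the array of control pool 3. It was tested only through the MPLE arrays, so no median is given for the interrenal list. In these lists 0 genes passed the adjusted threshold in limma. At an unadjusted p under 0.05 there were 1 higher (hba) and 1 lower (gata1) among the red cell genes. There were 2 higher and 1 lower among the granulocyte and macrophage genes, 2 lower among the thrombocyte and endothelium genes, and 0 among the B cell and interrenal genes. Of all genes 10.4% were higher and 5.16% lower at that p. The part of muscle RNA, or of the mix of blood cells, in the cell cycle values was not tested.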

How the data were processed

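Head kidney RNA of 3 MPLE pools and 3 control pools was measured on one-colour Agilent arrays (design 084881, scanner G2505C, Feature Extraction 10.7.3.1, protocol GE1_107_Sep09, per the file headers). The intensity used is the authors' deposited processed signal, background-subtracted and detrended within each array and not scaled between arrays. The deposited series values are log2 of the background-subtracted signal, unscaled, and served as an alternative. The design text speaks of a reference design, but the protocols and files are of 1 colour and were followed.

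Here log2 intensity minus each array's 75th percentile over 42438 spots was used, outlier spots were left out (0 were saturated), and a probe was tested if it stood well above background on all 3 arrays of either diet. limma 3.58.1 (R 4.3.3) was fitted on diet alone, two-sided, with Benjamini-Hochberg adjustment over 23132 probes; tables were made in Python 3.11.15. Of 42386 probes, 25420 matched a RefSeq gene (assembly Ssal_v3.1, names only), and 116 of 147 symbols that meet the rule had a matched probe. Probe sequences were not used here.

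Genes were named by rule: core replication and mitosis genes, the 5 smallest p-values of each group and of the genes outside the symbol rule, and defining markers. Pole3, pole4, mcm3ap, cdc26, cdc16, cdca3 and the genes too dim for a test were added with values in view. The members, roles and lists were chosen with earlier results of these data known. Pools are separate RNA samples, but tanks are not tied to pools, so p-values measure the spread between these pools and their arrays. Same-numbered pools correlated at -0.18, -0.34 and 0.08 in their deviations from the mean of their diet. Differently numbered pools correlated at -0.32 to 0.47. With 3 pools per diet these values cannot show whether the numbers pair the samples. Data of 22720 probes were also simulated, with noise drawn for each probe separately. There 0 of 100 log2 changes of 1 passed the adjusted threshold in limma (75 at unadjusted p under 0.05). Of 100 changes of 2, 33 passed, as did 2 unchanged probes. The simulation held no shift shared by many probes, such as that of control pool 3. It did not vary the number of arrays, so it is no measure of the power in the real data.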

Additional observations from a re-analysis of the deposited data

How the results depend on the processing

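Of the cell cycle and replication genes 0 passed the adjusted threshold in limma in every fit tried, with 2 to 52 at an unadjusted p under 0.05 (11 in the fit of the text). The 52 came with spike-in centring, whose mean includes E1A_r60_3 and E1A_r60_n9. There 0 were higher and 52 lower, 54.7% lower against 32.8% of all genes in that fit. Over all probes the count of 79 became 537 with median centring, 739 with array weights, 24 with quantile normalization, 24 with normexp, 14 with spike-in centring (8 higher, 6 lower, against 70 and 9), 26 adjusted over 1 probe per gene, 4096 unadjusted (2653 higher, 1443 lower), 0 without a filter on dim probes (4166 unadjusted) and 0 with the deposited values (3854 unadjusted). Leaving out 1 pool gave 0 to 161: 0 without MPLE pool 1, 2 or 3 or control pool 1 (2613, 2535, 2281 and 5014 unadjusted), 161 without control pool 2 and 135 without control pool 3. With a replicate block 249 probes passed (185 higher, 64 lower) and 0 of these genes. The labels do not say whether same-numbered pools were paired. No named gene of the cell cycle changed its call. The causes were not tested. A fit that leaves out a pool also has fewer arrays.

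The median changes of replication, mitosis, control and the genes outside the symbol rule were -0.93, -0.71, -0.77 and -0.75 with spike-in centring (all genes -0.47) and 0.59, 0.83, 0.84 and 0.68 in the unscaled deposited values (all genes 1.04). Without 1 pool they ran from -0.69 to -0.21 for replication, -0.54 to -0.19 for mitosis and -0.43 to 0.020 for control. Of 1178 values of 74 named genes under the alternatives, 1077 kept direction and side of the threshold, 96 turned sign and 5 came to pass it, these being hba, ckmb and casq1b.

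In the deposited values the sign turned for mcm3 0.30, mcm4 0.082, mcm7 0.33, mcm10 0.33, orc2 0.21, orc3 0.22, orc5 0.59, orc6 0.56, pola2 0.27, pold1 0.69, pold2 0.27, pold4 0.66, pole 0.33, pole2 0.86, pole4 1.50, rfc2 1.15, rfc4 1.06, cdc7 0.38, cdc45 0.92, ccnb2 0.10, ccnb3 0.18, bub1 0.44, bub1bb 0.90, bub3 0.67, birc5a 0.46, cenpf 0.98, ncapg 0.92, smc1a 0.31, top2a 0.77, cdc20 0.30, cdc27 0.076, cdca3 0.32, kif4 0.014, kif15 0.27, kif22 0.13, ccna2 0.43, ccnd1 0.84, ccnd2 0.73, ccnd3 0.84, cdk2 0.49, cdk6 0.39, chek1 1.27, cdc40 0.38, cdk13 0.90, cdk5rap2 0.16 and espl1 0.36, all below the 1.04 of all genes except pole4, rfc2, rfc4 and chek1. With spike-in centring it turned for mcm3ap -0.37, pold3 -0.41, pole3 -0.26, ccnb1 -0.14, cdc2 -0.011, aurka -0.085, cdkn1a -0.094, alas2 -0.34, cd79b -0.21 and star -0.10. With normexp, whose offset of 50 moves dim probes unequally between arrays, it turned for mcm3ap -0.25, pole3 -0.19, pole4 0.49, rfc2 0.29, rfc4 0.22, cenpf 0.066, ncapg 0.11, cdkn1a -0.13, chek1 0.37, cdk18 -0.014 and stmn1b -0.44. With quantile normalization it turned for pole4 0.031, bub1bb 0.0018, chek1 0.00046, alas2 -0.26 and star -0.0073, with array weights for pold3 -0.35, cdk2 0.10, cdk6 0.10 and chek1 0.035, and with median centring for pold3 -0.010. Without 1 pool the sign turned within these ranges: birc5a -0.56 to 0.0062, bub1bb -0.19 to 0.087, cdc2 -0.012 to 0.78, cdk2 -0.19 to 0.11, cdk6 -0.31 to 0.020, chek1 -0.43 to 0.25, mcm10 -0.54 to 0.077, mcm3ap -0.21 to 0.30, ncapg -0.54 to 0.039, pold3 -0.18 to 0.41, pole3 -0.041 to 0.35, pole4 -0.12 to 0.063 and rfc2 -0.87 to 0.23. The 3 pools per diet limit what can be shown, and probes near background have only loose values.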
